A study of Rattus norvegicus with 12 samples.

Results

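Acetylcholine acts in the brain through muscarinic receptors, which couple to G proteins, and nicotinic receptors, which are ion channels. The RNA of 10 genes of this system was followed in blast-exposed rats fed boldine or not: the muscarinic receptors Chrm1, Chrm2, Chrm3 and Chrm4, the nicotinic subunits Chrna4, Chrna7 and Chrnb2, the degrading enzyme acetylcholinesterase (Ache), the synthetic enzyme choline acetyltransferase (Chat) and the vesicular acetylcholine transporter Slc18a3. These 10 of the 17494 genes in the count table were chosen by name with earlier results of the same data known, among them a low level of Slc18a3 in the boldine rats, so values of Slc18a3 are given as a description without a test. Of the 10 genes, 8 passed the filter on low counts that the test uses, and Slc18a3 and Chat did not.

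The animals were wild-type male Long-Evans rats that had all received 3 low-level blasts at 10 weeks of age. Of these, 6 were fed chow with boldine, an alkaloid of the boldo tree, at 500 mg per kg of chow from the second week after blast (blast-boldine), and 6 were fed the same chow without it (blast-control). Tissue was taken 29 weeks after blast, and each rat gave 1 library. Rats without blast exposure are not analysed here, so every difference is one between diets in blast-exposed animals, and an action of boldine without blast cannot be told apart from one that needs it.

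The tissue is brain per the labels and hippocampus per the study's methods. Hippocampal neuron markers (8 of 9 listed genes in the table) summed to between 1371 and 1884 CPM (counts scaled to a common library size) in 11 of the rats, against 195 to 293 for 7 neocortex markers and 8.69 to 1191 for 6 choroid plexus markers, which thus differed widely between rats. Total counts lay between 10148474 and 40850106 in these 11 rats and reached 74008 in blast-control rat 6. A single count in rat 6 equals 15.8 CPM, and 3 counts, taken as the smallest detected level, equal 47.5 CPM there and at most 0.307 CPM elsewhere. Rat 6 had 0 counts for 7 of the 10 genes, where its depth would give between 0.024 and 3.06 counts at the mean level of the other rats. For this reason the fold changes of the 8 tested genes are given with all 12 rats and again without rat 6. The library names also pointed to 2 sets of libraries, each with 3 rats per diet, called sets A and B, whose identity is not labelled. The first principal component of the 11 deep libraries held 66% of the variance, of which the sets accounted for 95.1% and diet for 1.53%, and the sets were chosen to follow this component.

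Cholinergic axons reach the hippocampus mainly from the septum and diagonal band, where most of their cell bodies and hence most of the RNA for synthesis and vesicular loading of acetylcholine reside. RNA of the receptors and of acetylcholinesterase, in contrast, is also made by cells within the hippocampus. Chrm1 and Chrm3 couple to Gq and phospholipase C, Chrm2 and Chrm4 to Gi, Chrna4 and Chrnb2 assemble into one major class of neuronal nicotinic receptor, and Chrna7 forms channels by itself. In bulk tissue, fewer cells of a type and less RNA per cell cannot be told apart.

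Chat and Slc18a3 form the cholinergic gene locus, in which the transporter lies inside the first intron of the enzyme gene. In the annotation of mRatBN7.2 used for counting, Chat spans chr16:7657363-7717093 on the minus strand with 25 exon blocks, and Slc18a3, with 1 exon block, spans chr16:7713630-7716491 on the same strand. The start of Slc18a3 lay 602 bases inside that of Chat, and the exons of both genes shared no base, so a read on an exon was counted for 1 of them. Because Slc18a3 lies in an intron of Chat on the same strand, a read of unspliced Chat RNA from there would be counted for Slc18a3. The part of such reads in the Slc18a3 counts was not tested. The promoters of both are shown because these neighbours share a locus and are the 2 genes of the 10 with the fewest counts. They are the RefSeq entries of the build GRCr8, from 250 bases before to 50 bases after the start, at chr16:7722765-7723064 for Slc18a3 and chr16:7723367-7723666 for Chat, both on the minus strand and written 5′ to 3′. Capitals mark the GC box GGGCGG in Slc18a3 and TGACG, the core of a cAMP response element, on the opposite strand in Chat.

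Slc18a3: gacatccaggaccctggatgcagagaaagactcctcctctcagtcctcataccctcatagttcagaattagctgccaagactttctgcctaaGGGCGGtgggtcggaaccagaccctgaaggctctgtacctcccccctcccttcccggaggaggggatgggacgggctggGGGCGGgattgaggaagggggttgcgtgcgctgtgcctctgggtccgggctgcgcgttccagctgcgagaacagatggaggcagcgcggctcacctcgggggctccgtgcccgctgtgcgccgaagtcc

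Chat: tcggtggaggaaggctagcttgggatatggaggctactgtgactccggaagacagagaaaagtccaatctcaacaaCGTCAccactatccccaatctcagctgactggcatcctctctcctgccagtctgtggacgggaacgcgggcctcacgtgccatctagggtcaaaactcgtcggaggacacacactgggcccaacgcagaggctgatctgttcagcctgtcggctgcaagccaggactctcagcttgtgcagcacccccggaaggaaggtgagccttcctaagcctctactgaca

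The Slc18a3 promoter had 64.3% G and C and held 2 GC boxes, at positions -158 and -79 from the start, a motif found on either strand in 33.1% of all 33469 promoters of this length. The Chat promoter had 57.3% G and C, no GC box and 1 match to TGACG at -174, which 21.2% of all promoters hold. Each of the 2 promoters held 2 E-boxes (CANNTG, in 72.1% of promoters), none overlapping a capital. Neither held the EGR element GCGNGGGCG (4.98% of promoters), TATAAA (14.2%) or the RE1 parts TTCAGCACC (0.356%) and GGACAGC (6.59%). Among all 10 promoters, 8 held a GC box and 8 an E-box, and the EGR element occurred in those of Ache and Chrm3, where it overlapped GC boxes. These are matches of letters and not measured binding sites.

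Per kilobase of annotated exon, Chrm1 stood first, at 74.3 ± 9.93 CPM per kilobase (SD, n = 11 rats without rat 6), which was 3.15 times the next gene and above it in 11 of 11 rats. The level of Chrm1 exceeded that of 90.2% of the 12529 genes kept without rat 6. Chrm3 (23.6 ± 1.67), Chrna7 (22.4 ± 4.44), Chrnb2 (22.1 ± 5.88) and Ache (21.6 ± 6.75) followed and did not differ beyond their spread. Chrm4 (7.33 ± 1.08), Chrna4 (5.52 ± 2.25) and Chrm2 (5 ± 1.21 CPM per kilobase) formed a lower group whose neighbours differed by less than their spread, and Ache lay above Chrm4 in all 11 rats. Slc18a3 (0.133 ± 0.091) and Chat (0.115 ± 0.0342) were lowest by far, with Chrm2 37.5 times above Slc18a3. Per annotated length, the Gq-coupled receptor genes thus outweighed those coupled to Gi. The summed level of Chrm1, Chrm3 and Chrm5 was 7.82 to 9.62 times that of Chrm2 and Chrm4 in blast-boldine. In blast-control rats without rat 6 it was 6.05 to 12.8 times. These values depend on unlike annotated lengths, 1383 bases for Chrm1, 4086 for Chrm3, 2755 for Chrm4 and 2062 for Chrm2. Without division by length, the means over the 11 rats were 102.7 CPM for Chrm1, 96.5 for Chrm3, 20.2 for Chrm4 and 10.3 for Chrm2. Chrm1 alone made up 62.3% to 65.3% of the RNA per length of the 5 muscarinic genes in blast-boldine and 62.4% to 70.6% in blast-control rats, and these ranges overlapped.

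**Figure D1:**
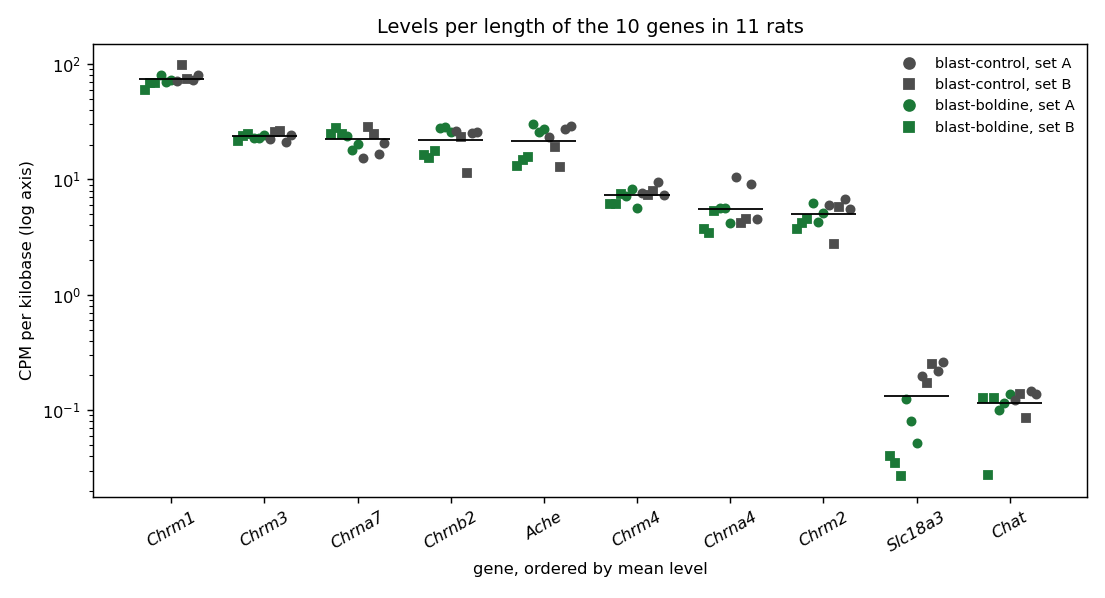
Level per length of each gene in 11 rats, as TMM-normalized CPM per kilobase of annotated exon on a log axis, with genes ordered by their mean (black line), diet by colour and library set by symbol. Chrm1 lies above every other gene at a mean of 74.3, 4 genes share a level near 22, and Slc18a3 and Chat lie near 0.1.

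None of the 8 tested genes passed the test between diets. With all 12 rats and the edgeR quasi-likelihood test, every one had a Benjamini-Hochberg adjusted p of 1, and 0 of 8 had an unadjusted p under 0.05, where 1.07% of all 12325 genes tested did (132 genes by edgeR and 85 by DESeq2, with 0 passing after adjustment in either). Values were lower in blast-boldine for 6 of the 8, with a median log2 fold change of -0.15 against 0.00 over all genes, of which 48.7% were below 0. By DESeq2, which also gave a value for Chat, 7 of 9 were below 0, as were 59.5% of all genes. Without rat 6 the values of 7 of 8 were below 0 (50.3% of all genes), the median was -0.14, and again 0 of 8 had an unadjusted p under 0.05 (1.4% of all genes). The same held in the other fits: 0 of 8 with the library set as a covariate (3.85% of all genes), and 0 of 9, Chat included, by DESeq2 with 12 rats (0.542%), without rat 6 (1.78%) and with the set and without rat 6 (4.69%).

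Chrm1, the chief muscarinic receptor of pyramidal neurons (chr1:205580528-205581910, plus strand), ranged from 82.5 to 110.1 CPM in blast-boldine with a median of 95.8. In blast-control it stood at 98.9 CPM in rat 1, 136.8 in rat 4, 102.5 in rat 5, 100 in rat 7 and 111.8 in rat 9, and 9 counts in rat 6 gave 142.5. Of the 6 blast-boldine rats, 4 lay below every control and the other two within the control range. The means were 96.7 ± 8.99 (SD, n = 6) and 110.0 ± 15.8 CPM (SD, n = 5, without rat 6). The log2 fold change was -0.22 (SE 0.13, 95% interval -0.49 to 0.06, edgeR adjusted p = 1), and -0.19 (-0.43 to 0.05) without rat 6. An exact two-sided permutation test of log2 CPM gave p = 0.0476 with all 12 rats, unadjusted and 1 of 9 genes so tested, but p = 0.0779 without rat 6, and within library sets the exact permutation p was 0.07 with and 0.11 without that rat. A difference was seen in set B, where blast-boldine rats had 82.5 to 95.6 and blast-control rats 102.5 and 136.8 CPM. In set A the mean log2 CPM differed by -0.03 and the diets overlapped. Without blast-control rat 4 the log2 fold change was -0.14.

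Chrm4, a Gi-coupled receptor (chr3:77893425-77901161, plus strand), showed a similar offset at a lower level. Blast-boldine rats had 15.5 to 22.6 CPM with a median of 18.4, and blast-control rats had 21.2 in rat 1, 20.2 in rat 4, 22 in rat 5, 26.0 in rat 7, 20.2 in rat 9 and 0 counts in rat 6. Without rat 6, 4 of 6 blast-boldine rats lay below every control. The means were then 18.7 ± 2.72 (SD, n = 6) and 21.9 ± 2.40 CPM (SD, n = 5). In edgeR the log2 fold change was -0.19 (SE 0.18, 95% interval -0.59 to 0.21, adjusted p = 1) with 12 rats, -0.23 (-0.52 to 0.05) without rat 6 and -0.11 without blast-control rat 7. The exact two-sided permutation p was 0.0779 without rat 6 and 0.1 within library sets. Both sets showed nearly the same difference, -0.24 in A and -0.21 in B on the log2 CPM scale. With rat 6 included the mean of log2 CPM was instead higher by 1.02 in blast-boldine (exact permutation p = 0.957), since a count of 0 in so shallow a library sets a very low value.

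For Chrm2 and Chrm3 no blast-boldine rat left the control range. Chrm3, a Gq-coupled receptor (chr17:60005505-60467249, plus strand), had 87.8 to 101 CPM in blast-boldine (median 95.6) and 85.8 to 107.7 in blast-control without rat 6 (median 99.1), and its coefficient of variation over the 11 rats, 7.06%, was the lowest of the 10 genes. Rat 6 stood apart at 190.0 CPM, which is 12 counts where 6.09 would come from the mean level of the others. The log2 fold change of Chrm3 moved from -0.13 (95% interval -0.45 to 0.19) to -0.04 (-0.23 to 0.15) once rat 6 was left out. Chrm2, a Gi-coupled receptor often found on axon terminals (chr4:65143653-65145715, plus strand), had 7.68 to 13.0 CPM in blast-boldine (median 9.12) and 5.72 to 13.9 in blast-control (median 11.9, without rat 6). Its log2 fold change was -0.17 (SE 0.23, 95% interval -0.68 to 0.33, edgeR adjusted p = 1) and -0.20 (-0.68 to 0.27) without rat 6. Leaving out other single rats moved it between -0.07, without blast-control rat 7, and -0.33, without blast-control rat 4. Of the blast-boldine rats, 5 of 6 lay under the control median for Chrm2 and for Chrm3 without rat 6.

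**Figure D2:**
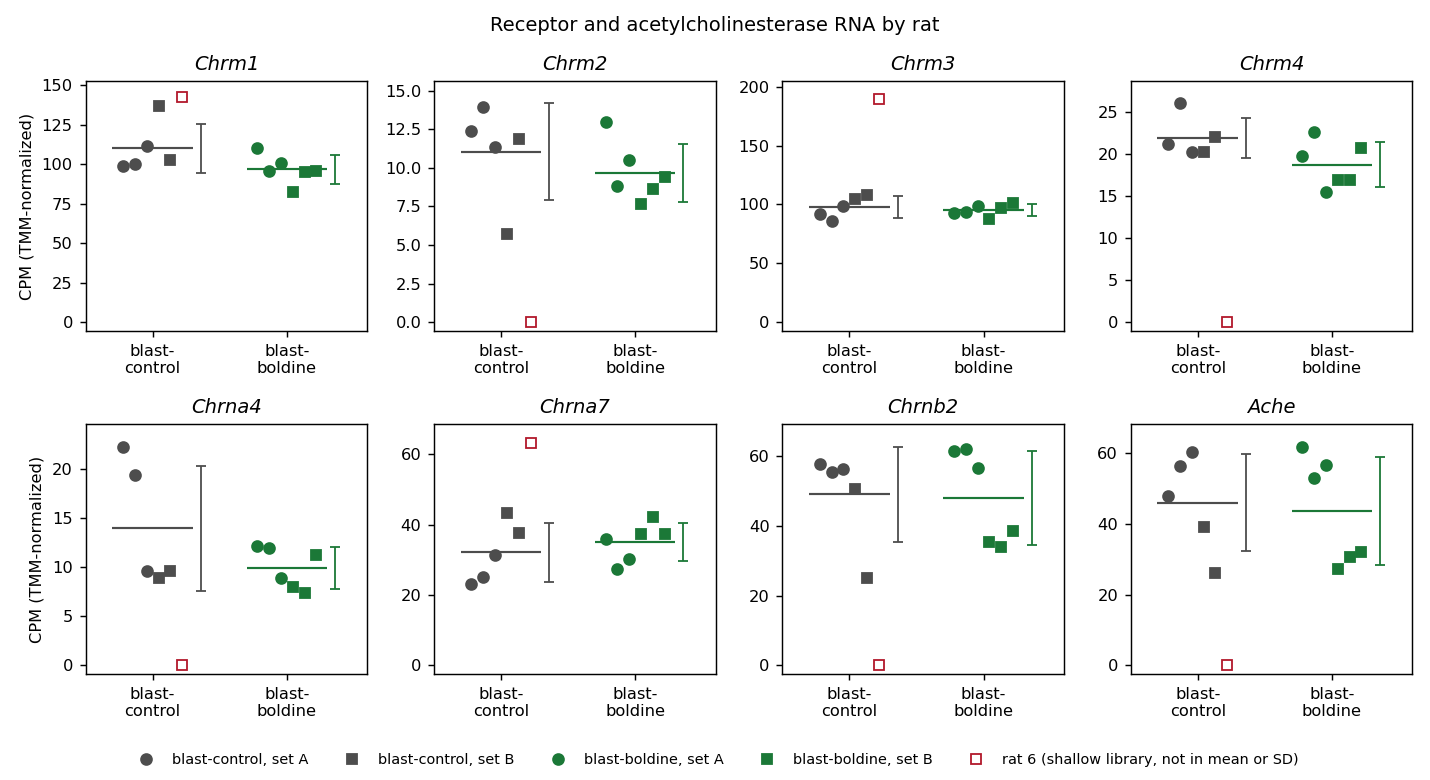
TMM-normalized CPM of the 8 tested genes in each rat by diet, with circles for library set A, squares for set B, an open red square for the shallow rat 6, and the mean (line) and SD (bar) of each group without rat 6. The diets overlap for every gene, 2 blast-control rats stand high for Chrna4 at 22.3 and 19.4 CPM, and Chrnb2 and Ache separate circles from squares.

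Of the nicotinic subunits, Chrna4 had the largest fold change of the 8 tested genes, and 2 blast-control rats stood above all others. This α4 subunit (chr3:168142065-168156846, minus strand) stood at 22.3 CPM in rat 1, 8.88 in rat 4, 9.62 in rat 5, 19.4 in rat 7, 9.67 in rat 9 and 0 counts in rat 6. Blast-boldine rats ranged from 7.34 to 12.1 CPM with a median of 10, slightly above the control median of 9.67 without rat 6. Thus 3 of 6 blast-boldine rats lay below every control and the other three lay above the 3 lower controls and below rats 1 and 7. The log2 fold change was -0.48 (SE 0.29, 95% interval -1.09 to 0.14, edgeR adjusted p = 1) with 12 rats and -0.51 (-1.11 to 0.10) without rat 6, and was -0.24 without blast-control rat 1. Within set A, which holds rats 1 and 7, the diets differed by -0.57 in mean log2 CPM, and within set B by -0.08. The exact two-sided permutation p without rat 6 was 0.225.

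Chrnb2, the β2 partner of Chrna4 (chr2:175181402-175189612, minus strand), did not follow it. Its CPM was 57.8 in rat 1, 50.6 in rat 4, 25.1 in rat 5, 55.6 in rat 7, 56.5 in rat 9 and 0 in rat 6 among controls, and 33.9 to 62.2 with a median of 47.6 in blast-boldine. The groups overlapped widely, and the log2 fold change of 0.03 (95% interval -0.60 to 0.65, edgeR adjusted p = 1) became -0.04 (-0.57 to 0.49) without rat 6. As a result the level of Chrnb2 per length was 3.33 to 6.21 times that of Chrna4 in blast-boldine (median 4.71) and 2.52 to 5.68 times in blast-control (median 2.79, without rat 6), again with overlap. Chrna7, the α7 subunit of homomeric channels (chr1:116715286-116837223, minus strand), ranged from 27.4 to 42.2 CPM in blast-boldine (median 36.7) and stood at 23.2, 43.2, 37.6, 25.2 and 31.3 CPM in blast-control rats 1, 4, 5, 7 and 9, with 4 counts (63.3 CPM) in rat 6. No blast-boldine rat lay outside the control range, and the log2 fold change was 0.09 (SE 0.19, 95% interval -0.33 to 0.51, edgeR adjusted p = 1) with 12 rats and 0.13 (-0.26 to 0.52) without rat 6.

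Acetylcholinesterase, which ends the signal by hydrolysing the transmitter (Ache, chr12:19407360-19412011, minus strand), did not separate by diet. Its CPM was 47.9, 39.3, 26.2, 56.3 and 60.4 in blast-control rats 1, 4, 5, 7 and 9, with 0 counts in rat 6, and ranged from 27.2 to 61.9 with a median of 42.5 in blast-boldine. The log2 fold change was -0.02 (95% interval -0.68 to 0.65, edgeR adjusted p = 1) with 12 rats and -0.08 (-0.67 to 0.51) without rat 6. The interval narrowed to -0.25 to 0.21 around -0.02 when the library set was a covariate and rat 6 was left out.

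Chat, which joins choline and acetyl-CoA, was near the limit of detection. Its counts in blast-control were 20, 5, 3, 0, 10 and 6 in rats 1, 4, 5, 6, 7 and 9, in all 44, and in blast-boldine 8, 1, 6, 8, 9 and 10 in rats 12, 17, 19, 20, 32 and 35, in all 42. On the CPM scale this gave 0.0991 to 0.497 (median 0.437) in blast-boldine and 0.307 to 0.524 (median 0.493) in blast-control without rat 6. The single low value was that of rat 17, with 1 count, and the other blast-boldine rats fell among the controls. The exact two-sided permutation p was 0.771 with 12 rats and 0.433 without rat 6. A difference of Chat between diets was not detectable at this depth.

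Slc18a3, which loads acetylcholine into synaptic vesicles, gave 26, 5, 7, 0, 12 and 9 counts in blast-control rats 1, 4, 5, 6, 7 and 9, in all 59, and 2, 1, 1, 8, 5 and 3 counts in blast-boldine rats 12, 17, 19, 20, 32 and 35, in all 20. In CPM the blast-control rats other than rat 6 had 0.57, 0.493, 0.716, 0.628 and 0.75, and the blast-boldine rats 0.0769 to 0.361 with a median of 0.132. Without rat 6, all 6 blast-boldine rats lay below all 5 controls, a separation for which the gene had been picked. Of the 12529 genes kept by the filter, which Slc18a3 did not pass, 0.152% showed a separation in either direction. That share comes from genes with more counts and is no measure of chance for Slc18a3. With rat 6 counted at 0 the groups overlapped (0.0811% of 12325 genes did not), and that depth would give 0.024 counts. The log2 fold change by DESeq2 was -1.89 with 12 rats and -1.74 without rat 6. In each library set the blast-boldine mean was lower: 0.246 against 0.65 CPM in set A and 0.0972 against 0.605 in set B. Only 3 of the 6 blast-boldine rats had more than 2 counts, and the counting intervals of single rats overlapped between diets, with rat 20 (8 counts) at 0.156 to 0.711 CPM and rat 4 (5 counts) at 0.16 to 1.15 CPM.

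The 2 genes of the locus are set side by side as a description, with no test of a difference between them. By DESeq2 with 12 rats the log2 fold change was -0.35 (95% interval -1.51 to 0.82) for Chat and -1.89 for Slc18a3. No interval is given for Slc18a3, since the gene had been picked for its low level in these same rats. Per length, the ratio of Slc18a3 to Chat was 1.26 to 2.93 in blast-control without rat 6 (median 1.63) and 0.209 to 1.26 in blast-boldine (median 0.537). The shared bound of 1.26 is that of rats in which both genes had equal counts, 5 and 5 in blast-control rat 4, 8 and 8 in blast-boldine rat 20, and 1 and 1 in blast-boldine rat 17.

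**Figure D3:**
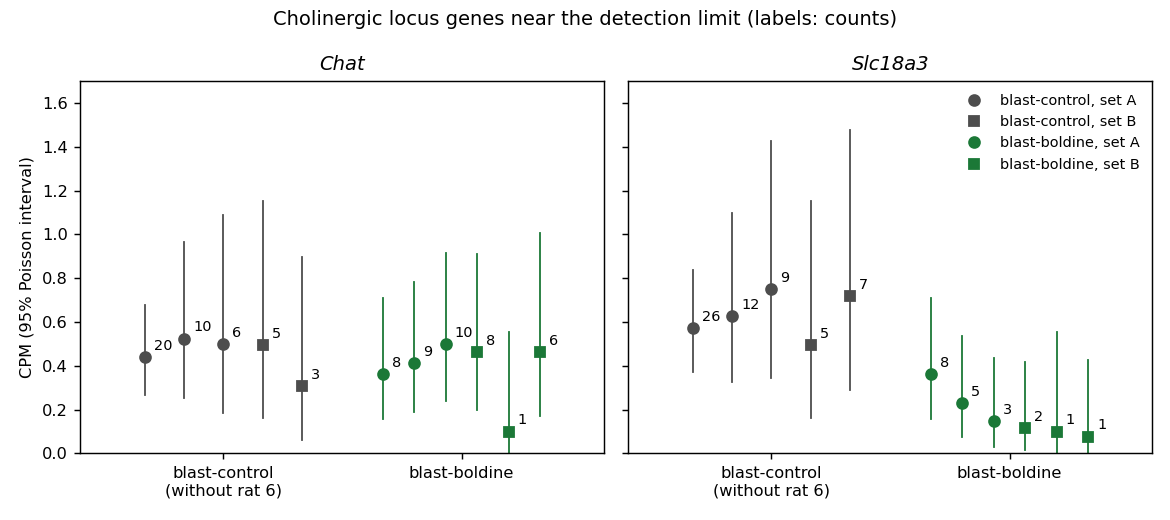
CPM of Chat (left) and Slc18a3 (right) in 11 rats by diet, with bars for the 95% Poisson interval of each count and the count written beside each point, circles for library set A and squares for set B. The diets overlap for Chat, and for Slc18a3 the 6 blast-boldine points, at 1 to 8 counts, lie below the 5 blast-control points, at 5 to 26 counts, while the intervals overlap.

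Markers of basal forebrain cholinergic neurons were read beside these values. All 7 listed genes had a count in some rat, but Lhx8, Isl1 and Gbx1, transcription factors of those cells, never exceeded 2 counts in a library. The summed level of the list was 13.1 to 29.9 CPM in blast-boldine (median 18.8) and 19.1 to 27.0 in blast-control without rat 6 (median 23.3). Its 3 lowest values were those of blast-boldine rats 12, 17 and 19 (16.1, 15.6 and 13.1 CPM), which also had the 3 lowest Slc18a3 values of the 11 deep libraries. These 3 are the blast-boldine rats of library set B, and the list was lower in set B (median 16.1 CPM) than in set A (24.0 CPM). Blast-control rats 4 and 5, also of set B, had 23.3 and 19.1 CPM, so within set B the diets did not overlap. Within set A the summed markers of blast-boldine rats (24.2, 21.4 and 29.9 CPM in rats 20, 32 and 35) overlapped those of blast-control rats (21.2, 23.8 and 27.0 CPM in rats 1, 7 and 9), while Slc18a3 was lower in each of these blast-boldine rats. Slc5a7, the choline transporter of cholinergic terminals, was at 0.769 to 12.1 CPM in blast-boldine (median 6.23) and 2.86 to 8.42 in blast-control (median 6.44), so its medians were close while its range was wider with boldine. The part of these markers in the Slc18a3 values was not tested.

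**Figure D4:**
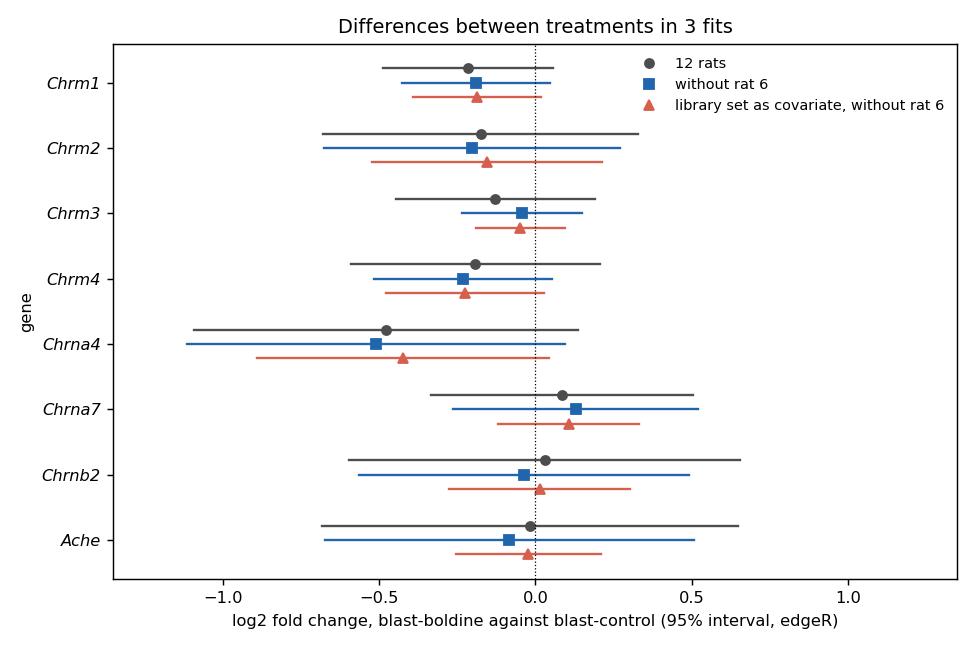
Log2 fold change of blast-boldine against blast-control for the 8 tested genes with 95% intervals, from edgeR with 12 rats (grey circles), without rat 6 (blue squares) and with library set as a covariate and without rat 6 (red triangles). Every interval crosses 0, and Chrna4 is farthest from 0 in each of these fits, at -0.48 with 12 rats.

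The library sets did not overlap for 3 of the 8 tested genes, where 48.6% of all 12529 genes had sets that did not overlap. Ache was 47.9 to 61.9 CPM in the 6 rats of set A and 26.2 to 39.3 in the 5 deep libraries of set B, Chrnb2 55.6 to 62.2 and 25.1 to 50.6, and Chrna7 23.2 to 36 and 37.3 to 43.2. Thus Ache and Chrnb2 were higher in set A, with medians 1.85 and 1.61 times those of set B, and Chrna7 was higher in set B, 1.3 times. Since the sets were chosen on the main axis of these same libraries, this is a description and not a trait of these genes. The ratio of these subunits differed by set along with these values: per length, Chrnb2 was 1.18 to 1.71 times Chrna7 in set A and 0.46 to 0.807 times in set B. Chrm1, Chrm3, Chrm4, Chrm2 and Chrna4 overlapped between the sets. Of the 13 marker lists, the sums for microglia, endothelium and red blood cells did not overlap between the sets without rat 6. The sums of the other lists overlapped, those of hippocampal neurons, oligodendrocytes and astrocytes included. Red blood cell markers (sum of 5 genes) were 165.4 to 234.5 CPM in set A and 51.9 to 126.4 in set B. Microglia markers (sum of 5 genes) were 256 to 282 CPM in set A and 113 to 182 in set B. Endothelium markers (sum of 4 genes) were 64.7 to 95.2 CPM in A and 178 to 245 in B. Ranges of single genes of the microglia and endothelium lists are given by diet and not by set, so they do not bear on the set difference. Aif1 of the microglia list was 14.3 to 21.2 CPM in blast-boldine and 16.8 to 20.3 in blast-control without rat 6. Of the endothelium list, Flt1 was 30.5 to 173.6 CPM and Cldn5 15.3 to 23.4 in blast-boldine. In blast-control without rat 6 they were 33.67 to 173.5 and 13.25 to 32.86 CPM. The part of these cells in the values of Ache, Chrnb2 and Chrna7 was not tested.

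**Figure D5:**
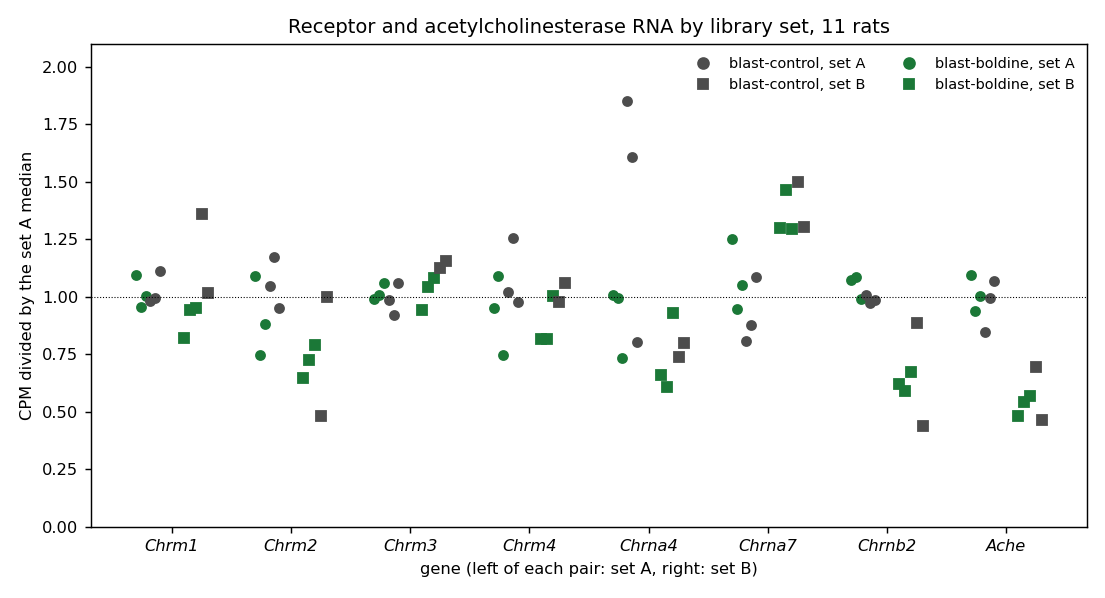
CPM of the 8 tested genes divided by the median of set A, for 11 rats, with set A (circles) left and set B (squares) right for each gene and diet by colour. Set B lies wholly below set A for Chrnb2 and Ache and wholly above it for Chrna7. Within set B the diets overlap for all but Chrm1 and Chrm3, and within set A for all 8 genes.

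With the set as a covariate and without rat 6, the intervals narrowed and still included 0. The log2 fold changes were -0.19 (95% interval -0.39 to 0.02) for Chrm1, -0.22 (-0.48 to 0.03) for Chrm4 and -0.42 (-0.89 to 0.04) for Chrna4. In that fit 0 of the 8 genes had an unadjusted p under 0.05, where 5.35% of all genes did.

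The wider cholinergic system was read from 4 further lists with 48 genes in all, and none of their genes passed the test with 12 rats, adjusted or unadjusted. Of 14 other acetylcholine receptor genes, 3 had enough counts (Chrm5, Chrna2 and Chrna5), and Chrm5, a Gq-coupled receptor with the highest level per length of that list, had 10.1 to 14.4 CPM in blast-boldine and 5.99 to 12.6 in blast-control without rat 6 (log2 fold change 0.13, edgeR adjusted p = 1). Choline supply and cholinesterases had 12 of 12 genes tested and a median log2 fold change of -0.05. Here Slc44a1, a choline transporter of many cells, had the highest level per length, at 138.7 to 165.9 CPM and 149.2 to 177.0 CPM. The list of nicotinic receptor assembly factors and Ly6 modulators had 7 of 9 genes tested and a median of 0.01, in which Ly6h had the highest level per length, with 63.8 to 130.5 CPM and 54.2 to 133.2 CPM. Muscarinic receptor coupling had 13 of 13 genes tested and a median of -0.02, in which Gnao1, a G protein α subunit, had the highest level per length, with 216 to 319 CPM and 230 to 408 CPM. In each of these pairs the first range is that of blast-boldine and the second that of blast-control without rat 6, and the ranges overlapped.

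Chrna5, an accessory subunit that joins Chrna4 and Chrnb2, was noticed after its values were seen. It was at 3.98 to 10.3 CPM in blast-boldine (median 6.94) and 5.43 to 13.6 in blast-control without rat 6 (median 9.83). Its log2 fold change of -0.55 (SE 0.29, edgeR adjusted p = 1) did not pass with 12 rats, and became -0.49 (SE 0.17) with the set as a covariate and without rat 6, where the unadjusted p was 0.0152 and the Benjamini-Hochberg adjusted p of the edgeR fit 0.898.

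The genes varied together only in part from rat to rat, and the library sets weighed on how they did. Pearson r of log2 CPM over 11 rats, after and before subtracting the mean of each set, was 0.73 and 0.93 for Chrnb2 with Ache and 0.76 and 0.31 for Chrm1 with Ache. It was 0.71 and 0.69 for Chrm4 with Chrna4, -0.72 and -0.81 for Chrna4 with Chrna7, and -0.79 and 0.18 for Chrm2 with Chrnb2. The α4 and β2 subunits, partners in the receptor, had r = -0.01 after and 0.48 before subtraction. Among all 12529 genes, those most like Chrm1 after subtraction were Slc45a1 (r = 0.96) and Ptpa (0.96), those most like Ache were Mgst3 (0.97) and Marchf2 (0.97), and those most like Chrnb2 were Arsa (0.97) and C2 (0.96). Chrna7 was most like Ifngr2 (0.95) and Tubb2b (0.94), Chrna4 most like Fap (0.94) and Rhbdd1 (0.93), Chrm3 most like Eif1b (0.94) and Rcc1 (0.94), Chrm2 most like Olfm3 (0.94) and Orc6 (0.94), and Chrm4 most like Mettl11b (0.89) and Camta1 (0.89). These values describe 11 libraries that share depth and tissue differences, and the highest of so many genes lie near 0.9 for each.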

How the data were processed

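RNA of 12 rats was sequenced as stranded total RNA libraries depleted of ribosomal RNA. The authors removed PhiX reads, PCR duplicates and adapters with HTStream, aligned paired reads to mRatBN7.2 (rn7) with STAR 2.7.11b and counted them on RefSeq exons by gene name and strand with featureCounts (Subread 2.0.1). The deposited values are these raw counts. Duplicate removal lowers counts of abundant RNA most. From them, CPM were computed with TMM scaling, and log2 CPM with a prior count of 2. Genes kept by filterByExpr (minimum 10, 12325 genes) entered edgeR 4.0.16 (R 4.3.3) with all 12 rats and diet alone in the model, and two-sided quasi-likelihood p-values were adjusted by Benjamini-Hochberg (threshold 0.05). Fold changes and their errors are the unshrunk coefficients of that fit. Exact permutation tests used all 924 assignments of rats (462 without rat 6), or 400 (200) within library sets. The sets were the best of 4 assignments that the library name suffixes allow. Alternatives were DESeq2 1.42.0, its size factors, no filter, the set as a covariate and each rat left out. Rats are the replicates. Totals were 10148474 to 40850106 counts, and 74008 in rat 6. Intervals and the floor of 3 counts cover counting error only.

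The genes and lists were chosen with earlier results of these data known. Other genes named are the highest of each list, any gene of a list with an unadjusted p under 0.05 with 12 rats (none), cell type markers, and the 2 genes most correlated with each tested gene. Per-length levels rest on the exon lengths in the file. Promoters were matched by symbol to RefSeq entries of GRCr8 for 10 of 10 genes.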

Additional observations from a re-analysis of the deposited data

Results flagged for a closer look

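Among the 20 sets of values, 10 genes in each of 2 groups of 6 rats, 4 held a rat far from the others by Dixon's criterion, where chance alone marks about 1 group in 20. In 3 of them it was blast-control rat 6, the library with 74008 counts. It was highest for Chrm3 at 190.0 CPM, lowest for Chrm4 at 0.0 CPM and lowest for Slc18a3 at 0.0 CPM. The fourth was blast-boldine rat 17, lowest for Chat at 0.0991 CPM, which is 1 count.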

How the results depend on the processing

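Rats of the 2 diets carry different numbers. No paired analysis was possible because the groups share no replicate number. In none of the alternative model fits did any of the 8 tested genes reach an unadjusted p under 0.05 or any of all genes an adjusted p under 0.05. The number of all genes with an unadjusted p under 0.05 was 132 (1.07% of those tested). It became 254 without the filter and 85 (0.542%) with DESeq2. It was 474 (3.85%) with the library set as a covariate, and 670 (5.35%) with the set and without rat 6. By DESeq2 without rat 6 it was 279 (1.78%), and 736 (4.69%) with the set as well. Leaving 1 rat out gave 85 to 214 such genes. The number of such genes in the 4 other lists was 0, and became 2 without the filter (Chrna10 and Chrnb3), 1 with the set as a covariate (Chrna5), 1 with the set and without rat 6 (Chrna5), 1 with DESeq2 without rat 6 (Chrnb3), 2 with DESeq2, the set and without rat 6 (Chrnb3 and Chrna5), and 0 to 1 with 1 rat left out (Chrna5 without blast-control rat 4 or blast-boldine rat 20). These genes were named after their values were seen, and all belong to the list of other acetylcholine receptor genes. That list had 3 genes tested with the set as a covariate, 5 with the set and without rat 6, and 14 by DESeq2. The other lists had 12, 7 and 13 tested in the edgeR fits with the set, and 12, 8 and 13 by DESeq2. The calls are read against the shares of all genes and not as a result about the lists. Log2 fold changes that changed sign were near 0: Chrna7 was -0.013 to 0.20 with 1 rat left out (negative without blast-control rat 1), Chrnb2 -0.12 to 0.11 and Ache -0.15 to 0.10. Chrnb2 was -0.035 by DESeq2 without rat 6. Differences in mean log2 CPM of the exact permutation tests turned sign without rat 6, whether permuted within library sets or not, to -0.15 for Chrm2, -0.24 for Chrm4, -0.41 for Chrna4, 0.15 for Chrna7, -0.022 for Chrnb2, -0.10 for Ache and -0.26 for Chat, since the 0 or few counts of rat 6 had set the values with 12 rats. The exact permutation p of Chrm1 was under 0.05 with 12 rats only (0.0476 against 0.07 to 0.11). Chrna4 had a log2 fold change of -0.24 to -0.59 with 1 rat left out, the smallest without blast-control rat 1. Of the other values, 236 kept their direction and their side of the threshold. Leaving out 1 rat also moved the log2 fold change of Chrm2 by over 1.5 times (-0.07 to -0.33), without blast-control rats 4 and 7 and blast-boldine rats 12 and 20, and that of Chrm4 to -0.11 without blast-control rat 7. The depth limits Chat and Slc18a3, with 1 to 26 counts per deep library.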
